A study of Mus musculus with 54 samples.

Results

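Glucose is carried across the proximal tubule cell by 2 families of membrane proteins, and 8 genes of this machinery were followed: the sodium-glucose cotransporters Slc5a2 (SGLT2), Slc5a1 (SGLT1), Slc5a9 (SGLT4) and Slc5a10 (SGLT5), the facilitative glucose transporters Slc2a2 (GLUT2), Slc2a1 (GLUT1) and Slc2a4 (GLUT4), and Pdzk1ip1, which encodes the SGLT2 partner MAP17. Members were the rows of the deposited expression table that carry one of these 8 symbols, 8 of 55487 rows. All 8 passed the filter on low values and were tested. SGLT2-positive early proximal tubules had been cut from kidneys of 14-week-old male DBA mice by laser capture, with 70 to 80 tubules pooled per sample, and their total RNA was sequenced. Non-diabetic mice carried Ins2+/+, and their diabetic littermates carried Ins2 Akita/+, a mutation of an insulin gene that causes insulin-deficient diabetes. Each background came with Sglt1+/+ (wild type) or Sglt1-/- (knockout). Treatment lasted 2 weeks.

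The non-diabetic groups were wild type with vehicle (n = 5), knockout with vehicle (n = 5), wild type with the SGLT2 inhibitor dapagliflozin at 10 mg/kg diet (n = 4) and knockout with dapagliflozin (n = 6). The Akita groups were wild type with vehicle (n = 6), knockout with vehicle (n = 6), wild type with dapagliflozin (n = 5), knockout with dapagliflozin (n = 6) and wild type with semaglutide (n = 5), an agonist of the GLP-1 receptor given subcutaneously at 3 nmol/kg body weight per day. The table has columns for 48 of the 54 samples with labels, and the other 6 were not analysed here. The tubules were picked by staining for SGLT2, the product of Slc5a2. A difference of Slc5a2 between groups therefore cannot be told apart from a difference in which tubules were picked.

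In the early proximal tubule, SGLT2 in the apical membrane takes glucose from the filtrate together with sodium, and it needs MAP17 for full transport activity. SGLT1 takes up glucose that escapes SGLT2, mainly further down the tubule. GLUT2 in the basolateral membrane lets glucose leave the cell towards the blood, and GLUT1 does so in later segments. SGLT4 and SGLT5 carry mainly mannose and fructose, and GLUT4 is the insulin-regulated transporter of muscle and fat. The sodium pump of the basolateral membrane keeps up the sodium gradient that drives the cotransporters.

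Slc2a2 and Pdzk1ip1 were the pair of members whose levels ran closest together across libraries (values below), and the stretches just before both genes are shown for that reason, with that of Slc2a1, a low member, for contrast. The letters are from RefSeq on build GRCm38.p6, printed 5′ to 3′ on the strand of the gene and ending at the base before its annotated start: Slc2a2 at chr3:28697653-28697902 (plus strand, 250 bases, 47.2% G or C), Pdzk1ip1 at chr4:115088458-115088707 (plus strand, 250 bases, 55.6% G or C) and Slc2a1 at chr4:119108495-119108710 (plus strand, 216 bases, 63.9% G or C). Capitals mark every match, on either strand, to 1 of 5 motifs: the HNF1 half-site GTTAAT, the TATA box TATAAA, the GC box GGGCGG, the CCAAT box CCAAT and the E-box CACGTG.
Slc2a2: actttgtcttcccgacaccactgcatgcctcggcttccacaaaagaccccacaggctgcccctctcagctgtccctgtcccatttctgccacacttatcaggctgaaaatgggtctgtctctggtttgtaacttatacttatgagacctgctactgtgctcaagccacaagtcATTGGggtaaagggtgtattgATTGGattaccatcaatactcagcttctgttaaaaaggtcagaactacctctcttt
Pdzk1ip1: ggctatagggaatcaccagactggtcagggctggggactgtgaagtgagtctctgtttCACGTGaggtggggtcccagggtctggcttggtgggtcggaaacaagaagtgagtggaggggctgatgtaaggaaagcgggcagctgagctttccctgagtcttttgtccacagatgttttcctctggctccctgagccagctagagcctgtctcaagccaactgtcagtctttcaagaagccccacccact
Slc2a1: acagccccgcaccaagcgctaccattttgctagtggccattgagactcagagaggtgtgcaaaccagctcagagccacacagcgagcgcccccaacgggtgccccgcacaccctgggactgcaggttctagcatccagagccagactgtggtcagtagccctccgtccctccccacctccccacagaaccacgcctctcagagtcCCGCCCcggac
The Slc2a2 stretch held the CCAAT box 2 times, on the reverse strand, and none of the other motifs. Pdzk1ip1 held the E-box 1 time, and the printed Slc2a1 stretch held the GC box on the reverse strand. Of 32851 RefSeq windows of 250 bases before a gene start, 33.9% held CCAAT, 6.02% CACGTG, 32.7% GGGCGG, 12.4% TATAAA and 6.43% GTTAAT. Matches of letters are a description only. Of the 8 members, 5 had an entry in the sequence table.

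Expression was deposited as TPM, an abundance scale in which each library is scaled to the same sum. Nuclear protein-coding genes made up 5.98% to 14.1% of that sum, and 1 ribosomal RNA 36.8% to 64.4%, so the TPM of a gene moves with the other RNA in the library. The mean nuclear protein-coding share was 8.59% and 8.78% in the Akita vehicle groups (wild type and knockout) and 8.88% to 10.8% in the other 7. TPM was therefore also rescaled to the nuclear protein-coding sum (rescaled TPM, without the gene Lars2), and the rescaled value is given beside the TPM value for Slc5a2 and for any other member with an unadjusted p under 0.05 in TPM. Of all 55487 rows, 8465 to 11419 reached 1 TPM in a library and were counted as detected genes. The 4 libraries under 9000 were all Akita vehicle libraries. TPM keeps no read depth, so counting error is unknown. A linear model (limma) of log2(TPM + 1) was fitted over 9 groups to the 12742 genes with at least 1 TPM in at least 5 libraries, with the call set at an adjusted p below 0.05. On this scale the changes of low genes are understated. Nothing in the labels says which samples came from 1 animal. Some may share one, in which case the p-values are too small, and they measure only the spread between these samples.

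The libraries carried early proximal tubule markers, and late ones at a lower sum. Of 10 early proximal tubule markers, 10 were tested, and their summed level ran from 799 to 2024 TPM (median 1260). Slc34a1 of the early list averaged 655 TPM and Atp11a of the late list 184.5 TPM, so both sums lean on single genes. They do not by themselves tell early from late proximal tubule. Markers of the late proximal tubule (S3) summed to 72.3 to 452 TPM, those of the thick ascending limb to 20.3 to 159 TPM and those of the distal convoluted tubule to 11.3 to 274 TPM. Skeletal muscle markers had a median sum of 0. Adipocyte markers summed to 0.839 to 17.9 TPM, where Adipoq, the defining gene of adipocytes, averaged 0.05002 TPM and Fabp4 3.01 TPM. Sums were 17.1 to 87.9 TPM for endothelium, 4.25 to 178 TPM for leukocytes and 7.03 to 57.5 TPM for collecting duct. They were 0.780 to 77.4 TPM for smooth muscle and pericytes. Podocyte, erythroid and fibroblast sums reached 26.0, 21.6 and 16.8 TPM. In pooled tubules, fewer cells of a type and less RNA per cell cannot be told apart.

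Slc5a2 was the most abundant member in every library. Its median over 48 libraries was 169 TPM (82.5 to 275), rank 72 among the tested genes, a rank that the choice of SGLT2-positive tubules bears on. Pdzk1ip1 followed at 44.7 TPM (28.3 to 85.1, rank 368). Slc5a10 had a median of 40.03 TPM (17.7 to 95.7, rank 447). The exit transporter Slc2a2 stood at 15.6 TPM (6.15 to 25.4, rank 1554). The remaining members were low. Slc5a9 had a median of 2.37 TPM (0.970 to 6.90). Slc2a1 had a median of 1.36 TPM (0.384 to 2.59) and reached 1 TPM in 38 of 48 libraries. Slc5a1 in the 25 wild-type libraries had a median of 1.74 TPM (0.814 to 4.29), and Slc2a4 over all 48 had 0.307 TPM (0 to 3.21), reaching 1 TPM in 10.

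Within libraries this order was firm at the top. Slc5a2 exceeded Pdzk1ip1 in 48 of 48 libraries (median ratio 3.82), Slc5a10 exceeded Slc2a2 in 48 of 48 (median ratio 2.68) and Slc2a2 exceeded Slc5a9 in 48 of 48 (median ratio 5.87). Pdzk1ip1 and Slc5a10 were not separated, with Pdzk1ip1 higher in 34 of 48. Among the low members, Slc5a9 exceeded Slc2a1 in 42 of 48 libraries. In the 25 wild-type libraries, Slc5a1 exceeded Slc2a1 in all but 4 and exceeded Slc2a4 in 25. TPM is per transcript length, so these levels can be set against each other across genes.

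**Figure D1:**
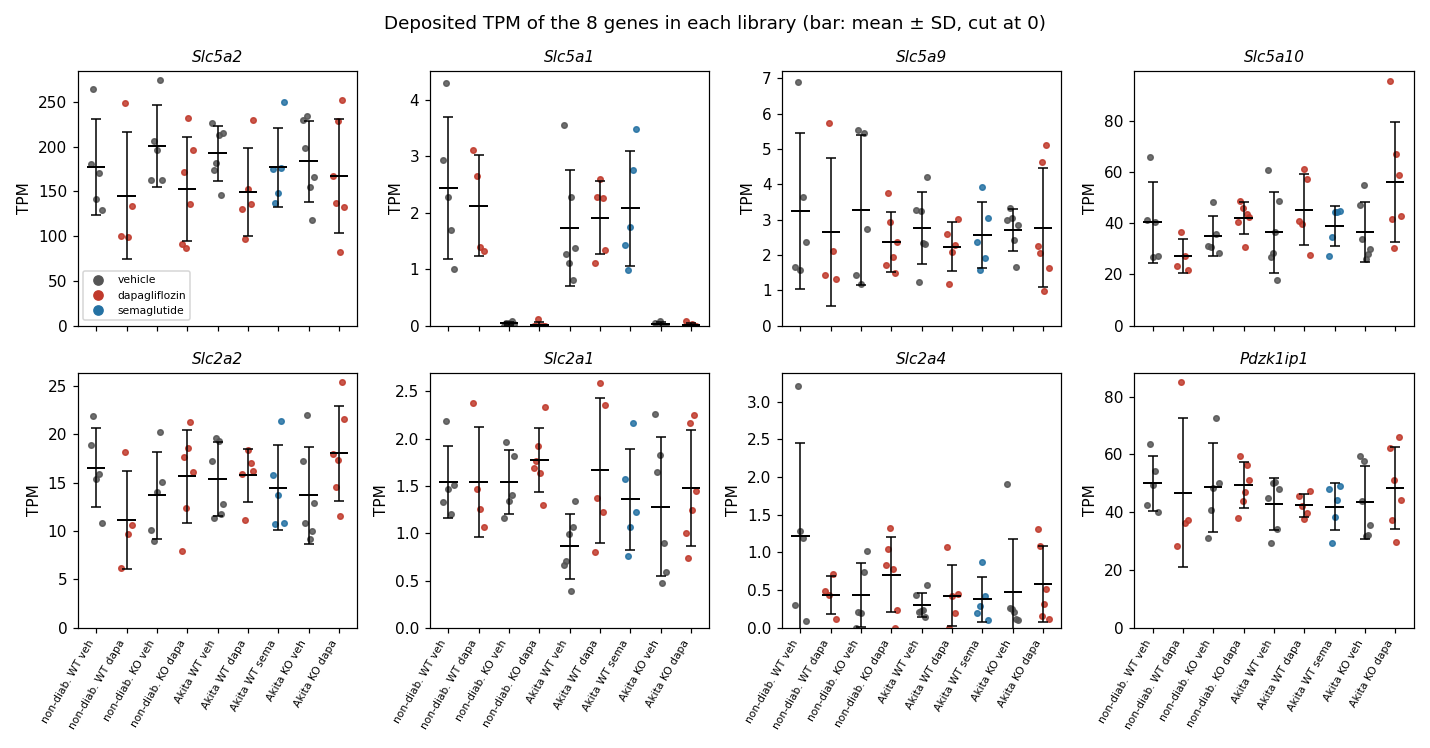
TPM of the 8 genes (vertical axes, each with its own range) in each of 48 libraries, by group along the horizontal axis; points are libraries coloured by treatment, bars mean ± SD. Slc5a1 is near 0 in the 4 knockout groups, and the other 7 genes overlap between all vehicle and treated groups.

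Slc5a1 was the knocked-out gene, so its loss was fixed by the design, and it passed the filter through wild-type libraries alone. Its tests are no finding about the members, and it served only as the check of the labels. In wild-type libraries it measured 2.92, 4.29, 2.27, 1.69 and 0.996 TPM in non-diabetic vehicle, 0.814 to 3.55 TPM (median 1.32) in Akita vehicle, 3.10, 2.65, 1.40 and 1.32 TPM in non-diabetic dapagliflozin, and 1.11, 2.28, 2.59, 2.25 and 1.33 TPM in Akita dapagliflozin. In knockout libraries it was listed at 0 in 14 of 23 and reached at most 0.123 TPM. Wild-type and knockout libraries did not overlap. The change over 4 backgrounds was −1.51 ± 0.107 (log2 of TPM + 1, SE, adjusted p = 4.18e-15). Within single backgrounds Slc5a1 was 1 of 8 members called in each: −1.64 in non-diabetic vehicle (adjusted p = 7.6e-06), −1.34 in Akita vehicle (0.000123), −1.57 in non-diabetic dapagliflozin (4.37e-05) and −1.48 in Akita dapagliflozin (3.51e-05), each an adjusted p of limma. The background was low: 0.0235% of tested genes were called over 4 backgrounds and in non-diabetic vehicle, and 0.0157% in the other 3 comparisons. Slc5a1 was also the sole member with an unadjusted p under 0.05 over 4 backgrounds (4.91% of all genes), in non-diabetic vehicle (4.61%), in Akita vehicle (1.95%) and in Akita dapagliflozin (2.5%). The share of genes whose groups did not overlap was 0.824% in non-diabetic vehicle, 0.0471% in Akita vehicle, 1.07% in non-diabetic dapagliflozin and 0.204% in Akita dapagliflozin.

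The loss of Slc5a1 was not accompanied by a called change of any other member. Over 4 backgrounds the other 7 members changed by at most 0.20 (log2 of TPM + 1), and Slc5a2 by 0.08 (95% interval −0.19 to 0.35). Slc2a2 changed by 0.05 (−0.21 to 0.30) and Pdzk1ip1 by 0.06 (−0.17 to 0.30). The median of all tested genes shifted by 0.07. Slc5a10, the mannose and fructose cotransporter, was higher in knockout than in wild-type dapagliflozin libraries of non-diabetic mice, at 30.9 to 48.5 TPM (median 43.04) against 23.5, 36.7, 27.1 and 21.6 TPM. All 6 knockout libraries lay above the wild-type median, and the groups overlapped (0.62, SE 0.28, limma unadjusted p = 0.0297, adjusted p = 0.721). Rescaled, this difference was 0.37 (unadjusted p = 0.133). In that comparison 2 of 8 members, Slc5a1 and Slc5a10, had an unadjusted p under 0.05, against 6.88% of all tested genes.

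Slc5a2 changed little with diabetes on the deposited scale. Non-diabetic wild-type vehicle libraries measured 180, 264, 141, 171 and 129 TPM (177 ± 53.1, SD, n = 5). Akita wild-type vehicle libraries ran from 146 to 226 TPM (median 198, 193 ± 30.6, n = 6). These groups overlapped, and the change was 0.15 (95% interval −0.38 to 0.68, adjusted p = 0.919, limma). In knockouts, vehicle libraries measured 163, 206, 197, 275 and 162 TPM without diabetes and 118 to 234 TPM (median 182) with it, and the change was −0.14 (−0.67 to 0.39, adjusted p = 0.81). Nothing separated these groups on this scale. In rescaled TPM the Akita wild-type libraries ran from 187 to 255 (224 ± 27.6) and the non-diabetic ones from 137 to 211 (171 ± 27.5). That change was 0.39 (SE 0.17, limma unadjusted p = 0.0235, adjusted p = 0.471), and over both genotypes it was 0.29 (adjusted p = 0.341). No member was called for diabetes in vehicle tubules on either scale, while 0.0235% of tested genes were called in wild type and 0.557% over both genotypes on TPM, and 0.235% over both genotypes on rescaled TPM. Rescaled, 0.0863% were called in wild type. In knockouts 0 genes were called on either scale by limma, and 0 of 8 members had an unadjusted p under 0.05 in TPM, against 14.4% of all tested genes. Over both genotypes 1 member (Slc2a1) did, against 18.5%. Of 6 late proximal tubule (S3) markers, 6 were lower with diabetes in each genotype on both scales. Their summed level was 225 to 408 TPM in non-diabetic and 79.0 to 317 TPM in Akita wild-type vehicle, and 228 to 377 TPM against 72.3 to 349 TPM in knockout. Over all 48 libraries Atp11a averaged 184.5 TPM and the sum had a median of 260 TPM, so the sum mainly follows Atp11a. In rescaled TPM the mean sums were 284 and 172 in wild type and 278 and 203 in knockout. Over both genotypes 2 of the 6 were called lower in TPM, Slc7a13 (−0.87, adjusted p = 0.0488) and Slco1a1 (−1.14, adjusted p = 0.0255, limma), and 0 rescaled. Their part in the Slc5a2 values was not tested.

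Dapagliflozin blocks the protein that Slc5a2 encodes, and the Slc5a2 transcript was lower under it in Akita tubules, with a call that depends on the scale. In TPM, Akita wild-type libraries with dapagliflozin measured 131, 96.4, 153, 136 and 230 (149 ± 49.6, SD, n = 5), against 146 to 226 with vehicle. Of these 5 libraries, 3 lay below every vehicle library and 1 lay above all of them. In Akita knockouts, dapagliflozin libraries ran from 82.5 to 252 TPM (median 152, 167 ± 63.7, n = 6) and vehicle libraries from 118 to 234 TPM (183 ± 45.5, n = 6), a wide overlap. The TPM changes were −0.41 in wild type (95% interval −0.94 to 0.12, adjusted p = 0.604), −0.19 in knockout (−0.70 to 0.31, adjusted p = 0.854) and −0.30 over both genotypes (−0.67 to 0.07, adjusted p = 0.39), each by limma. With 0.816% of tested genes called over both genotypes in TPM, 0 of 8 members were called there, and Slc5a10 and Slc2a1 had an unadjusted p under 0.05 (2 of 8, against 17.5% of all tested genes). In each genotype alone, 0 genes were called in TPM, and 1 of 8 members had an unadjusted p under 0.05 in wild type (Slc2a1, 10.1% of all genes) and 1 of 8 in knockout (Slc5a10, 7.59%).

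On the rescaled scale the groups drew apart. Akita wild-type libraries with dapagliflozin measured 153, 91.3, 129, 128 and 197 rescaled TPM (139 ± 38.8), against 187 to 255 with vehicle (224 ± 27.6). Akita knockout libraries with dapagliflozin ran from 99.4 to 189 (153 ± 32.0), against 185 to 269 with vehicle (208 ± 31.2). Below every vehicle library of their genotype lay 4 of 5 wild-type and 5 of 6 knockout libraries, and all 11 lay below its median. Over both genotypes Slc5a2 fell by 0.59 on the log2 scale (SE 0.12, adjusted p = 0.00988, limma), rank 9 by p among the tested genes, in a comparison where 0.565% of tested genes were called and Slc5a2 was 1 of 8 members called. Without the 4 libraries under 9000 detected genes, all of them Akita vehicle, the change was −0.52 (adjusted p = 0.0829) and was no longer called. Taken singly, the genotypes did not pass the test (−0.71, adjusted p = 0.15, in wild type, where 0 genes were called, and −0.46, adjusted p = 0.586, in knockout, where 0.0157% were), and the genotypes did not differ detectably in this change (0.25, SE 0.23, adjusted p = 1). Median-of-ratios and quantile scaling also called it over both genotypes. The nuclear protein-coding share, by which the 2 scales differ, averaged 10.4% in both Akita dapagliflozin groups and 8.59% and 8.78% in the vehicle groups. The median change of all tested genes was 0.17 in TPM and −0.02 in rescaled TPM. Of the genes called, 102 of 104 were higher in TPM and 39 of 72 in rescaled TPM.

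**Figure D2:**
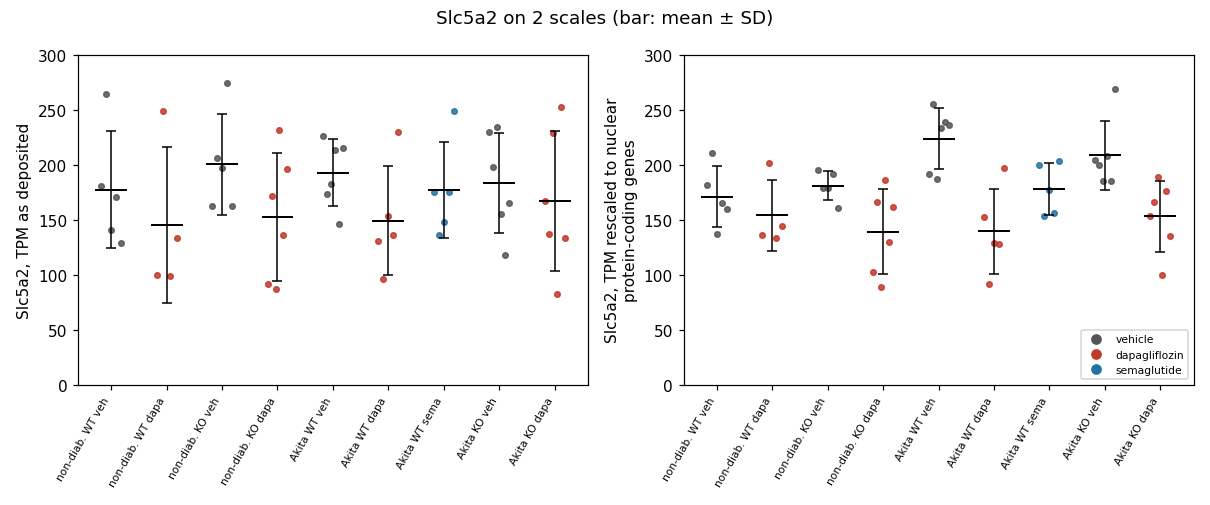
Slc5a2 in each library, in deposited TPM (left) and in TPM rescaled to nuclear protein-coding genes (right), by group; points are libraries coloured by treatment, bars mean ± SD. On the right, 9 of 11 Akita dapagliflozin libraries lie below every Akita vehicle library of their genotype, and on the left the groups overlap.

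In non-diabetic tubules the direction was the same and the change was not called. Wild-type libraries with dapagliflozin measured 100, 249, 98.7 and 133 TPM (145 ± 70.8, n = 4), and knockout libraries 86.8 to 232 TPM (median 154, 152 ± 58.1, n = 6). Of these, 3 of 4 and 5 of 6 lay below their vehicle median, and 1 wild-type library at 249 TPM lay apart from the other 3. The changes were −0.35 in wild type (95% interval −0.94 to 0.24, adjusted p = 0.981), −0.46 in knockout (−0.99 to 0.07, adjusted p = 1) and −0.40 over both (SE 0.20, limma unadjusted p = 0.0445, adjusted p = 0.979). Over both genotypes 0 genes were called, and 1 of 8 members had an unadjusted p under 0.05 (3.69% of all genes). In knockout 0 of 8 members were called in TPM, against 0.00785% of all genes, and 0 of 8 had an unadjusted p under 0.05 (3.88%). Rescaled, the Slc5a2 change was −0.16 in wild type (limma unadjusted p = 0.401, adjusted p = 0.984) and −0.42 in knockout (unadjusted p = 0.0150, adjusted p = 0.719). Below every vehicle library of their genotype lay 2 of 4 wild-type and 3 of 6 knockout libraries. Over both genotypes the rescaled change was −0.29 (limma unadjusted p = 0.0248, adjusted p = 0.999). The difference between the dapagliflozin change in Akita and in non-diabetic tubules over both genotypes was 0.10 in TPM (SE 0.27, adjusted p = 0.851, limma) and −0.30 rescaled (SE 0.17, unadjusted p = 0.0872, adjusted p = 0.895), opposite in sign. In wild type alone it was −0.06 in TPM and −0.56 rescaled (SE 0.25, unadjusted p = 0.0310, adjusted p = 0.602, limma), so an effect specific to diabetes was not shown. Diabetes, dapagliflozin and semaglutide comparisons in Akita share the same vehicle libraries.

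Semaglutide was given to Akita wild-type mice only. Slc5a2 measured 175, 136, 148, 175 and 249 TPM under it (177 ± 43.9, n = 5), of which 4 lay below the vehicle median and 1 above every vehicle library. The change was −0.14 (95% interval −0.67 to 0.39, adjusted p = 0.953). Rescaled, 3 of 5 libraries lay below every vehicle library and the change was −0.33 (adjusted p = 0.683). Set against dapagliflozin, semaglutide libraries were higher by 0.27 in TPM (−0.28 to 0.83, adjusted p = 1) and by 0.38 rescaled (adjusted p = 0.998). No member was called for semaglutide by limma, nor was any gene, and 0 of 8 members had an unadjusted p under 0.05 in TPM (5.82% of all genes), nor did any in the comparison with dapagliflozin (2.61%). The capture numbers of the semaglutide samples run from 88 to 99. Those of their vehicle samples run from 1 to 82 and those of Akita wild-type dapagliflozin from 4 to 78. Capture number and drug therefore cannot be told apart in either semaglutide comparison.

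Ratios within a library do not depend on how the library is scaled, and 3 were taken after the data were seen, to the members nearest to Slc5a2 in abundance. Slc5a2 over Slc2a2, uptake over exit, averaged 12.99 ± 2.73 in Akita wild-type vehicle and 9.46 ± 2.64 with dapagliflozin, and 13.97 ± 2.96 and 9.19 ± 2.44 in Akita knockout. Below the vehicle median lay 4 of 5 wild-type and 5 of 6 knockout dapagliflozin libraries. Over both genotypes this log2 ratio fell by 0.54 (exact permutation test within genotype, two-sided p = 0.00116, adjusted p = 0.0452 over 39 tests of 3 ratios). A ratio also moves with its denominator, so a lower ratio does not by itself show that Slc5a2 fell. In TPM, Slc5a2 changed by −0.19 and Slc2a2 by 0.40 in Akita knockout, and by −0.41 and 0.05 in Akita wild type. Slc5a2 over Pdzk1ip1, transporter over partner, averaged 4.59 ± 0.788 and 3.50 ± 1.00 in wild type, and 4.27 ± 0.477 and 3.41 ± 0.699 in knockout. Its change over both genotypes was −0.38 (exact permutation p = 0.00384, adjusted p = 0.0749). Slc5a2 over Slc5a10 averaged 5.84 ± 1.61 and 3.77 ± 2.57 in wild type, and 5.11 ± 0.770 and 3.53 ± 2.25 in knockout, a change of −0.77 (exact permutation p = 0.00807, adjusted p = 0.105). The first of these ratios passed the test and the others did not. In non-diabetic tubules the corresponding changes over both genotypes were −0.18 to Slc2a2 (adjusted p = 0.474), −0.33 to Pdzk1ip1 (0.195) and −0.29 to Slc5a10 (0.35), by the same exact permutation test. The genotypes differed in sign for 2 of these ratios, a difference that was not tested. To Slc2a2 the change was 0.29 in wild type (exact permutation p = 0.111, adjusted p = 0.255) and −0.65 in knockout (exact permutation p = 0.026, adjusted p = 0.183), where 6 of 6 dapagliflozin libraries lay below the vehicle median. To Slc5a10 it was 0.17 in wild type (adjusted p = 0.539) and −0.74 in knockout (adjusted p = 0.195), and to Pdzk1ip1 −0.14 and −0.52 (adjusted p = 0.52 and 0.195), by the same exact permutation test.

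**Figure D3:**
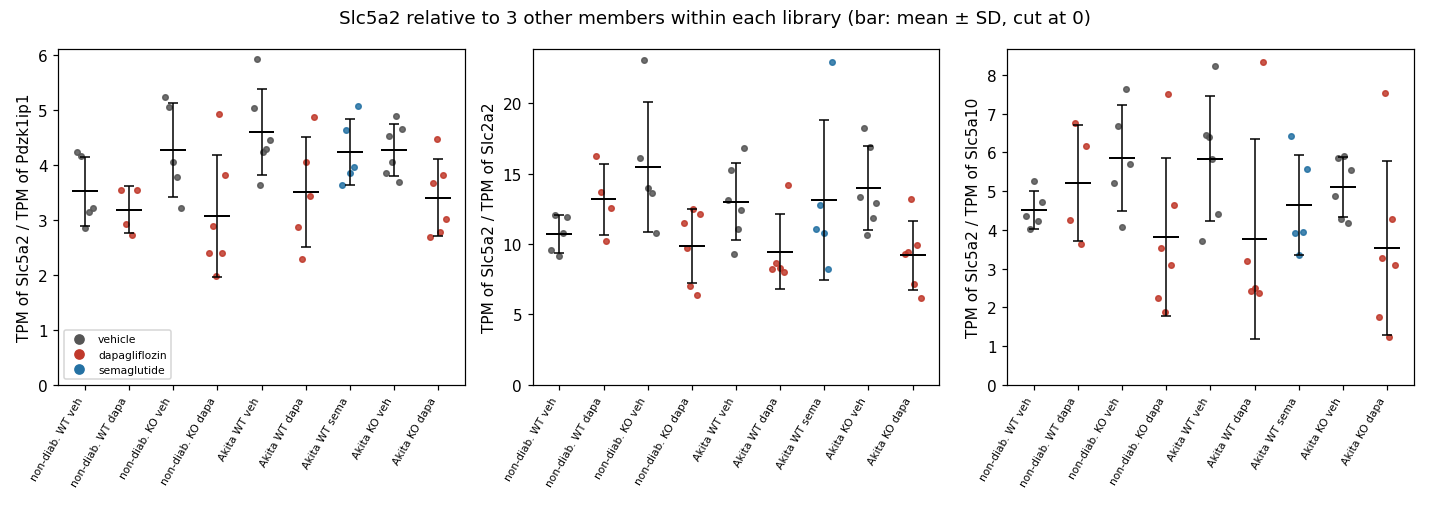
TPM of Slc5a2 divided by that of Pdzk1ip1, Slc2a2 or Slc5a10 in the same library (vertical axes, no unit), by group; points are libraries coloured by treatment, bars mean ± SD cut at 0. In the middle panel the Akita dapagliflozin groups average 9.46 and 9.19, against 12.99 and 13.97 with vehicle.

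Markers of other tubule segments were read beside this result. Among late proximal tubule (S3) markers, 6 of 6 were higher with dapagliflozin in Akita on both scales and none was called. Their summed level, which mainly follows Atp11a, was 79.0 to 317 TPM in Akita wild-type vehicle and 159 to 431 TPM with dapagliflozin. In knockout it was 72.3 to 349 TPM with vehicle and 148 to 315 TPM with dapagliflozin. Of the early proximal tubule markers, 9 of 10 were higher in TPM and 3 of 10 in rescaled TPM, none called. The part of these markers in the Slc5a2 result was not tested. The gene BC017158 overlaps 1052 bases of Slc5a2 (chr7:128265657-128272430, plus strand, GRCm38) on the opposite strand. The library kit keeps strand, and whether the quantification used it is not given in the sources used here. BC017158 averaged 4.67 TPM and changed by −0.16 rescaled over both genotypes (adjusted p = 0.653, limma). Whether these genes share reads was not tested.

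Slc5a10 went the other way from Slc5a2 in Akita tubules in TPM, short of a call. Knockout libraries measured 26.2 to 54.8 TPM with vehicle (median 31.8) and 30.3 to 95.7 TPM with dapagliflozin (median 50.9), 5 of 6 above the vehicle median. The change was 0.56 (95% interval 0.05 to 1.06, adjusted p = 0.652, limma) in TPM and 0.29 (unadjusted p = 0.186) rescaled. Wild-type libraries ran from 17.7 to 60.7 TPM with vehicle and measured 40.8, 39.8, 61.2, 57.4 and 27.6 TPM with dapagliflozin, 4 of 5 above the vehicle median. Over both genotypes the change was 0.46 (SE 0.18, unadjusted p = 0.0144, adjusted p = 0.182, limma), and rescaled it was 0.18 (unadjusted p = 0.264). Under dapagliflozin, wild-type Akita libraries were higher than the non-diabetic ones at 23.5, 36.7, 27.1 and 21.6 TPM (0.69, SE 0.29, adjusted p = 0.849), by 0.44 rescaled (unadjusted p = 0.0891). The difference between the dapagliflozin changes in Akita and non-diabetic wild type was 0.86 (SE 0.39, adjusted p = 0.417), and over both genotypes 0.57 (SE 0.27, adjusted p = 0.327). These 2 tests called 0 genes, and Slc5a10 was the 1 member of 8 with an unadjusted p under 0.05, against 11.2% and 14.7% of all genes. Rescaled, that difference was 0.38 in wild type (unadjusted p = 0.274) and 0.18 over both genotypes (adjusted p = 0.971). Slc5a10 shares 25861 bases with Fam83g on the opposite strand, which averaged 3.07 TPM (0.764 to 6.04). Fam83g changed by −0.32 in TPM over both genotypes of Akita with dapagliflozin (adjusted p = 0.329, limma), opposite in sign to Slc5a10. Rescaled, Fam83g changed by −0.53 (adjusted p = 0.0463, limma) and was called. With median-of-ratios scaling it changed by −0.51 (adjusted p = 0.0516) and with quantile scaling by −0.49 (adjusted p = 0.057), neither called.

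Slc5a9, encoding the mannose and glucose cotransporter SGLT4, had overlapping ranges in all groups. Group means lay between 2.23 TPM (Akita wild-type dapagliflozin) and 3.27 TPM (non-diabetic knockout vehicle). In non-diabetic wild-type vehicle alone it ran from 1.58 to 6.90 TPM. It was not called in any of the 23 comparisons and had no unadjusted p under 0.05 in TPM. Rescaled, it changed with dapagliflozin in Akita by −0.41 in wild type, where 5 of 5 libraries lay below the vehicle median. In knockout the rescaled change was −0.30, with 4 of 6 below it. Over both genotypes it was −0.35 (limma unadjusted p = 0.0557, adjusted p = 0.469), not called.

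Slc2a2, which lets glucose out of the cell, was not called in any of the 23 comparisons. Its wild-type vehicle libraries measured 18.8, 21.9, 15.4, 15.8 and 10.8 TPM without diabetes (16.5 ± 4.12, n = 5) and 11.4 to 19.6 TPM with it (15.3 ± 3.81, n = 6). The groups overlapped and the change was −0.10 (95% interval −0.61 to 0.40, adjusted p = 0.95, limma). In knockouts the vehicle means were 13.7 ± 4.46 and 13.7 ± 5.001 TPM, a change of −0.01 (−0.51 to 0.49, adjusted p = 0.992). With dapagliflozin, Akita wild-type libraries measured 15.9, 11.1, 18.4, 17.04 and 16.2 TPM (0.05, −0.45 to 0.55, adjusted p = 0.957), and Akita knockout libraries 11.6 to 25.4 TPM (0.40, −0.08 to 0.88, adjusted p = 0.708). Of those 6 knockout libraries, 5 lay above the vehicle median. With semaglutide the values were 15.8, 10.7, 13.7, 21.3 and 10.9 TPM (−0.09, −0.59 to 0.42, adjusted p = 0.969), and against dapagliflozin the difference was −0.14 (adjusted p = 1).

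The group mean of Slc2a2 was lowest in non-diabetic wild-type libraries with dapagliflozin, which measured 6.15, 18.2, 9.69 and 10.6 TPM. Of these, 3 of 4 lay below every vehicle library and 1 near the top of the vehicle range. The change was −0.59 (SE 0.28, unadjusted p = 0.0389, adjusted p = 0.981, limma), and by an exact permutation test p = 0.103. Rescaled it was −0.41 (unadjusted p = 0.0499). In non-diabetic knockouts it was 0.18 (−0.33 to 0.68, adjusted p = 1). In the wild-type comparison all 8 members were lower in TPM, with a median of −0.29, against a median of −0.13 for all tested genes, and 6 of 8 were lower with protein-coding or median-of-ratios scaling and 5 of 8 with quantile scaling. The comparison called 0 genes, and 1 of 8 members had an unadjusted p under 0.05 (4.05% of all genes).

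Slc2a1, encoding GLUT1, was low and had its lowest group mean in Akita wild-type vehicle. Those 6 libraries ran from 0.384 to 1.34 TPM (median 0.851, 0.861 ± 0.342), against 1.33, 2.19, 1.47, 1.21 and 1.51 TPM in non-diabetic wild-type vehicle (1.54 ± 0.383, n = 5). All 6 lay below the non-diabetic median, and the ranges overlapped between 1.21 and 1.34 TPM. The change was −0.46 (SE 0.21, unadjusted p = 0.0306, adjusted p = 0.601, limma), and the exact permutation test gave p = 0.0108 before any adjustment. Rescaled, 4 of 6 lay below the non-diabetic median and the change was −0.33 (unadjusted p = 0.0761). With dapagliflozin, Akita wild-type libraries measured 0.800, 1.37, 2.59, 1.22 and 2.36 TPM (1.67 ± 0.768), 3 of 5 above every vehicle library. That change was 0.49 (SE 0.21, unadjusted p = 0.0209, adjusted p = 0.415) in TPM and 0.31 (unadjusted p = 0.0918) rescaled. Neither passed the test, and both use the same 6 vehicle libraries. Averaged over genotypes the TPM changes were −0.33 with diabetes (adjusted p = 0.215) and 0.32 with dapagliflozin (adjusted p = 0.241), and the rescaled ones −0.19 (unadjusted p = 0.138) and 0.16 (unadjusted p = 0.194). In diabetes of wild-type vehicle tubules, 2 of 8 members had an unadjusted p under 0.05, against 7.6% of all tested genes.

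Slc2a4, the insulin-regulated transporter, was the other of those 2. It measured 0.303, 3.21, 1.28, 1.19 and 0.0910 TPM in non-diabetic wild-type vehicle and 0.140 to 0.567 TPM (median 0.230) in Akita wild-type vehicle. All 6 Akita libraries lay below the non-diabetic median and inside its range. The change was −0.61 (SE 0.27, unadjusted p = 0.0285, adjusted p = 0.595, limma), and an exact permutation test gave p = 0.0801. Rescaled it was −0.52 (unadjusted p = 0.0558). At these levels 1 library carries much of a group mean. Slc2a4 was listed at 0 in 3 of 48 libraries.

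Pdzk1ip1, the SGLT2 partner, was not called in any of the 23 comparisons. Non-diabetic wild-type vehicle libraries measured 42.6, 63.6, 49.3, 54.3 and 40.05 TPM (50.0 ± 9.47), and Akita wild-type vehicle libraries 29.3 to 50.4 TPM (median 46.6, 42.8 ± 8.98). The change was −0.23 (95% interval −0.69 to 0.23, adjusted p = 0.839, limma), and in knockouts it was −0.15 (−0.61 to 0.30, adjusted p = 0.751). With dapagliflozin, Akita wild-type libraries measured 45.5, 42.1, 37.7, 39.6 and 47.3 TPM, inside the vehicle range (0.01, −0.45 to 0.47, adjusted p = 0.991). Akita knockout libraries ran from 29.7 to 66.1 TPM (0.15, −0.29 to 0.58, adjusted p = 0.87). Changes with dapagliflozin in non-diabetic tubules were −0.21 in wild type (−0.71 to 0.30, adjusted p = 0.981) and 0.06 in knockout (−0.40 to 0.52, adjusted p = 1). Semaglutide libraries measured 48.2, 29.4, 38.5, 44.3 and 49.2 TPM (−0.02, −0.48 to 0.43, adjusted p = 0.992), and against dapagliflozin the difference was −0.04 (adjusted p = 1). Rescaled, the change with dapagliflozin in Akita over both genotypes was −0.20 (SE 0.10, unadjusted p = 0.0452, adjusted p = 0.432).

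Within the dapagliflozin groups, diabetic and non-diabetic tubules were also compared. In wild type the changes with diabetes were 0.09 for Slc5a2 (95% interval −0.50 to 0.68), 0.53 for Slc2a2 (−0.02 to 1.09) and −0.01 for Pdzk1ip1 (−0.52 to 0.50). In knockout they were 0.13 for Slc5a2 (−0.38 to 0.64), 0.21 for Slc2a2 (−0.27 to 0.69) and −0.06 for Pdzk1ip1 (−0.50 to 0.37). Neither comparison called any gene by limma, and 1 of 8 members in wild type (Slc5a10, 5.5% of all genes) and 0 of 8 in knockout (2.32%) had an unadjusted p under 0.05.

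**Figure D4:**
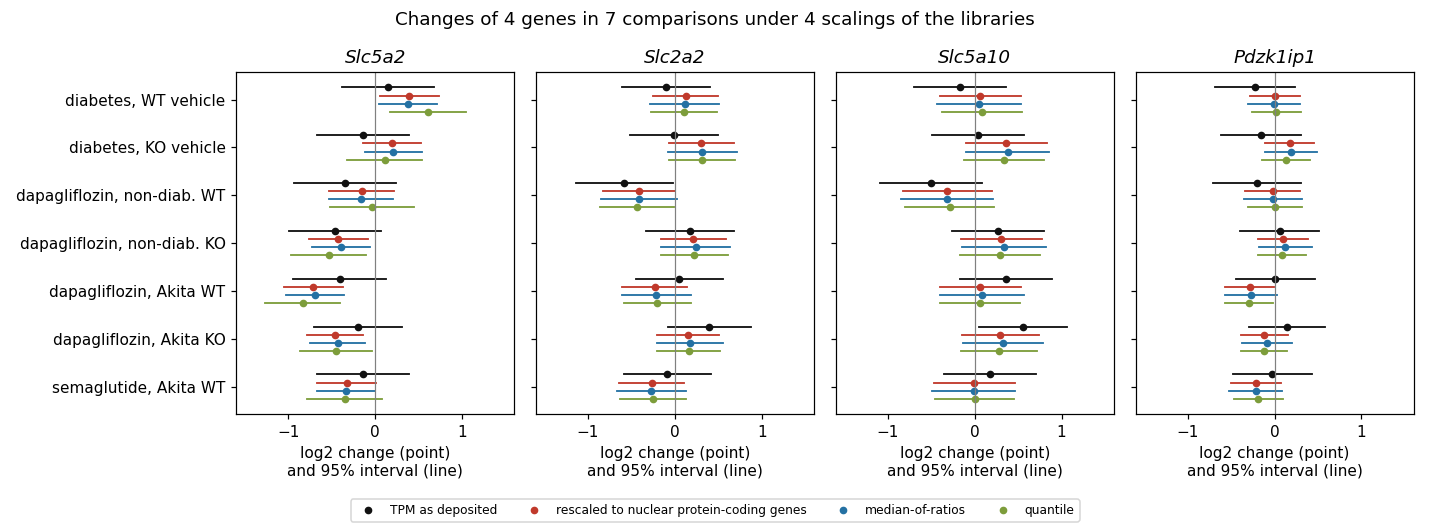
Log2 changes (points) with 95% intervals (lines) of Slc5a2, Slc2a2, Slc5a10 and Pdzk1ip1 (panels) in 7 comparisons (rows) under 4 scalings of the libraries (colours); WT is wild type and KO knockout. Slc5a2 lies below 0 in all 5 drug comparisons under all 4 scalings, and changes of the other 3 genes shift sides in some comparisons, as with Slc2a2 under dapagliflozin in Akita wild type (0.05 in TPM, −0.23 rescaled).

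The other genes of glucose handling gave few calls. Lists covered other SLC5 cotransporters (5 of 9 genes tested), other SLC2 transporters (3 of 9), apical scaffold proteins (4 of 4), SGLT regulators (5 of 6), hepatocyte nuclear factors (4 of 6), the sodium pump (3 of 3), glucose phosphorylation and release (4 of 8) and glucose-responsive genes (7 of 7), 35 tested genes in all. Over the 23 comparisons in TPM, 1 gene was called in 1 comparison. Khk, which phosphorylates fructose, was higher with dapagliflozin in Akita over both genotypes (0.52, SE 0.13, adjusted p = 0.0393), and rescaled the change was 0.24 (adjusted p = 0.257). In that comparison 0.816% of all tested genes were called in TPM. Of the list genes, 32 of 35 were higher, with a median of 0.28 against 0.17 for all genes. Rescaled, 22 of 35 were higher, with a median of 0.07 against −0.02.

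Genes of glucose phosphorylation and release were 4 of 4 higher on both scales, with medians of 0.38 and 0.19, none called. The medians of all genes were 0.17 and −0.02. Among hepatocyte nuclear factors, which drive proximal tubule and liver genes, 4 of 4 were higher in TPM and 2 of 4 rescaled. Pdzk1, the scaffold protein that binds MAP17, averaged 124 TPM and changed by 0.28 in TPM (adjusted p = 0.306) and −0.01 rescaled. Slc2a5, the fructose transporter GLUT5, averaged 16.1 TPM, close to Slc2a2, and changed by 0.42 in TPM (adjusted p = 0.281). Slc5a4a, Slc5a7 and the SGLT regulator Rsc1a1 were listed at 0 in every library.

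Levels of the members were set against each other over the 48 libraries as a description. The points share the library scale, so Spearman's rho is given in TPM and rescaled. Pdzk1ip1 and Slc2a2 gave 0.72 and 0.55. Slc5a2 gave 0.63 and 0.49 with Slc5a9, 0.65 and 0.33 with Pdzk1ip1, and 0.21 and −0.18 with Slc5a10. Rescaling lowered each of these values. Of 10116 other named protein-coding genes, those most like Slc5a2 in rescaled level were Limch1 (0.70) and Tpcn1 (0.69). The genes most like Slc2a2 were Aldh2 (0.73) and Fam151a (0.72), and those most like Pdzk1ip1 were Ass1 (0.67) and Sephs2 (0.62). For Slc5a10 they were Eno1 (0.71) and Gpd1 (0.62), and for Slc5a9 Nox4 and Limch1 (0.58 each). Of the other low members, Slc5a1 had Vsig10 (0.56) and Slit2 (0.54), Slc2a4 had Glb1 (0.61) and Nek9 (0.56), and Slc2a1 had Arhgap21 (0.45) and Rasa1 (0.44). With values near 1 TPM the correlations of these members are no finding.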

How the data were processed

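Stranded total RNA libraries were made from captured tubules, per the labels' protocols. The deposited values are TPM from the authors' table of 55487 rows, and Salmon, MultiQC 1.8 and GRCm38 are named in the submitters' processing notes. The table's name says that outliers were removed, and the rule is not given in the sources used here. Each column carries a capture number that matches 1 sample title, and groups came from the labels.

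The members, gene lists and tests were chosen with earlier results of these data known. limma 3.58.1 in R 4.3.3 (trended, robust moderation, statmod 1.5.0) was fitted to log2(TPM + 1) of 12742 genes over 9 groups with 39 residual degrees of freedom, and p-values were adjusted by Benjamini-Hochberg over all tested genes in each of 23 comparisons. On simulated data in the Akita wild-type dapagliflozin comparison, 67.7% of genes changed by 1 and 99.0% of genes changed by 2 on the log2 scale were recovered among 12742 genes. There, 10 unchanged genes were called. The changed genes were drawn from higher levels than those of Slc5a1, Slc5a9, Slc2a1 and Slc2a4, so the recovery does not cover these members. The simulated noise was independent between genes, without shifts shared by a library. All members were named with TPM. Changes are printed for Slc5a2, Slc2a2 and Pdzk1ip1 in each diabetes or drug comparison of 2 groups, and for others with an unadjusted p under 0.05. The rescaled changes of Slc5a9 were added after their values were seen. List genes were named where called, and Pdzk1, Slc2a5, Slc5a4a, Slc5a7, Rsc1a1, Slc7a13, Slco1a1, Fam83g and BC017158 were chosen after their values were seen. The genes most like a member were the 2 named protein-coding genes with the highest rescaled Spearman correlation. Alternatives were other scalings, filters, pseudocounts, covariates, sample sets and exact permutation tests. The TPM ratios were added after the data were seen.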

Additional observations from a re-analysis of the deposited data

Results flagged for a closer look

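Of 72 sets of a member in a group, those of 4 to 10 libraries were examined for a library far from the others, and 3 were found. Chance marks about 1 in 20 such sets. Replicates are numbered in accession order. Slc5a1 was at 0.123 TPM in non-diabetic knockout dapagliflozin replicate 3 and listed at 0 in the other 5 libraries of that group. Slc2a4 was at 1.91 TPM in Akita knockout vehicle replicate 1, where the other 5 libraries were at 0.0991 to 0.267 TPM. Pdzk1ip1 was at 85.1 TPM in non-diabetic wild-type dapagliflozin replicate 3, where the others were at 28.3, 36.2 and 37.5 TPM. The cause was not tested in any of these.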

How the results depend on the processing

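Sequencing depth is unknown, so the changes that it leaves undetectable could not be worked out. No paired analysis was possible because the labels give no replicate numbers and tie no samples to animals. Over all alternatives that did not leave out a single library, 761 of 834 values kept their direction and side of the threshold. Directions could not turn with no filter, with only the groups compared or with plain moderation, so this total overstates the stability. Of 47 changes of single members, 9 turned direction with median-of-ratios, 11 with quantile and 10 with protein-coding scaling. The count of members called with dapagliflozin in Akita over both genotypes was 0 in TPM and 1 (Slc5a2) with median-of-ratios, quantile and protein-coding scaling. Over all genes that comparison called 104 in TPM, 54 with median-of-ratios (31 higher), 58 with quantile (36 higher) and 72 with protein-coding scaling, and diabetes in vehicle over both genotypes called 71 and, with protein-coding scaling, 30. The rescaled Slc5a2 change was −0.61 (adjusted p = 0.00358) with the capture number, −0.62 (adjusted p = 0.00973) with the genes detected as a covariate and −0.59 (adjusted p = 0.0094) with a pseudocount of 0.1. It was −0.52 (adjusted p = 0.0829) without the libraries under 9000 genes, and −0.65 to −0.52 with each library left out in turn (adjusted p 0.00227 to 0.0288). With a filter at a mean of 5 TPM, members called in the 5 knockout comparisons went from 1 to 0, since Slc5a1 was no longer tested.

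The changes that turned direction were in each case not called in TPM, and the cause was not tested. Median-of-ratios scaling gave Pdzk1ip1 0.19 (diabetes in knockout vehicle), −0.088 (dapagliflozin in Akita knockout), −0.27 (dapagliflozin in Akita wild type), 0.050 (semaglutide against dapagliflozin in Akita wild type), Slc2a2 0.32 (diabetes in knockout vehicle), 0.11 (diabetes in wild type vehicle), −0.22 (dapagliflozin in Akita wild type) and Slc5a2 0.21 (diabetes in knockout vehicle), −0.16 (diabetes in wild type dapagliflozin). Quantile normalization gave Pdzk1ip1 0.14 (diabetes in knockout vehicle), 0.022 (diabetes in wild type vehicle), −0.13 (dapagliflozin in Akita knockout), −0.29 (dapagliflozin in Akita wild type), 0.0080 (dapagliflozin in non-diabetic wild type), 0.11 (semaglutide against dapagliflozin in Akita wild type), Slc2a2 0.31 (diabetes in knockout vehicle), 0.10 (diabetes in wild type vehicle), −0.20 (dapagliflozin in Akita wild type) and Slc5a2 0.11 (diabetes in knockout vehicle), −0.19 (diabetes in wild type dapagliflozin). Rescaling to nuclear protein-coding genes gave Pdzk1ip1 0.17 (diabetes in knockout vehicle), 0.0090 (diabetes in wild type vehicle), −0.12 (dapagliflozin in Akita knockout), −0.29 (dapagliflozin in Akita wild type), 0.075 (semaglutide against dapagliflozin in Akita wild type), Slc2a2 0.30 (diabetes in knockout vehicle), 0.13 (diabetes in wild type vehicle), −0.23 (dapagliflozin in Akita wild type) and Slc5a2 0.19 (diabetes in knockout vehicle), −0.16 (diabetes in wild type dapagliflozin). The capture number as a covariate gave Pdzk1ip1 0.0088 (diabetes in knockout dapagliflozin), −0.022 (dapagliflozin in Akita wild type) and Slc2a2 0.047 (diabetes in knockout vehicle), 0.053 (diabetes in wild type vehicle). The number of detected genes as a covariate gave Pdzk1ip1 0.15 (diabetes in knockout vehicle), −0.00093 (dapagliflozin in Akita knockout), −0.21 (dapagliflozin in Akita wild type), 0.013 (semaglutide against dapagliflozin in Akita wild type), Slc2a2 0.23 (diabetes in knockout vehicle), 0.047 (diabetes in wild type vehicle), −0.12 (dapagliflozin in Akita wild type) and Slc5a2 0.23 (diabetes in knockout vehicle), −0.12 (diabetes in wild type dapagliflozin). Leaving out the 4 libraries under 9000 genes gave Pdzk1ip1 −0.0053 (dapagliflozin in Akita knockout), −0.19 (dapagliflozin in Akita wild type), Slc2a2 0.086 (diabetes in knockout vehicle), 0.071 (diabetes in wild type vehicle), −0.12 (dapagliflozin in Akita wild type) and Slc5a2 0.036 (diabetes in knockout vehicle). The log2 ratios of Slc5a2, added after the data were seen, changed by 0.017 (diabetes in knockout vehicle) to Pdzk1ip1, by 0.29 (dapagliflozin in non-diabetic wild type), −0.49 (diabetes in wild type dapagliflozin), −0.10 (diabetes in knockout dapagliflozin) to Slc2a2, by 0.17 (dapagliflozin in non-diabetic wild type), −0.62 (diabetes in wild type dapagliflozin), −0.20 (diabetes in knockout dapagliflozin) to Slc5a10. With each library left out in turn, the ranges that crossed 0 were Pdzk1ip1 −0.091 to 0.062 (dapagliflozin in Akita wild type), −0.13 to 0.094 (semaglutide in Akita wild type), −0.30 to 0.0017 (diabetes in knockout vehicle), −0.085 to 0.21 (dapagliflozin in non-diabetic knockout), −0.20 to 0.32 (diabetes in wild type dapagliflozin), −0.10 to 0.083 (semaglutide against dapagliflozin in Akita wild type), −0.16 to 0.063 (diabetes in knockout dapagliflozin), Slc2a2 −0.24 to 0.0014 (diabetes in wild type vehicle), −0.023 to 0.16 (dapagliflozin in Akita wild type), −0.23 to 0.0035 (semaglutide in Akita wild type), −0.15 to 0.14 (diabetes in knockout vehicle) and Slc5a2 −0.080 to 0.38 (diabetes in wild type dapagliflozin), −0.012 to 0.31 (diabetes in knockout dapagliflozin).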
